A study of Mus musculus with 15 samples.

Results

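The transcription factor Myc and 9 genes of the immediate early response (Fos, Fosb, Jun, Junb, Atf3, Egr1, Klf6, Ier2 and Dusp1) were followed in 15 mouse liver tumors. They were chosen by gene name: every non-control probe of the array that carries 1 of these 10 names was taken, which gave 10 probes, 1 for each gene, of 55681 probes and 35715 gene names in all. Tumor RNA was hybridised to 1-colour Agilent SurePrint G3 mouse arrays, and all mice were on a C57/BL6J background. Mice with a liver-specific deletion of Trp53 (p53LKO), the gene of the tumor suppressor p53, gave 5 hepatocellular carcinomas (HCC) and 5 intrahepatic cholangiocarcinomas (ICC), and control mice with floxed Trp53 (p53f/f) gave 5 HCC. All groups, controls included, had received carbon tetrachloride (CCl4, a liver toxin) into the abdomen at 0.5 µl per g of body weight for 16 weeks, from 6 weeks of age according to the methods. The methods describe the tumors as whole carcinoma tissue. Both sexes were used in the study, a legend names male mice for the HCC arrays, and the sex behind the ICC arrays is not given in the sources used here. The driver of the Cre recombinase and the age of each arrayed mouse are not given there either, and since the study describes tumors of p53f/f mice as forming later, age and genotype cannot be told apart.

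Immediate early genes are switched on within minutes of growth factor signals, stress or injury, without new protein synthesis, through factors that are already present in the cell. Fos and Jun proteins pair to form AP-1, a dimeric transcription factor, and Myc pairs with Max to drive genes of ribosome production, metabolism and cell division. In the liver these genes are known for their early response to partial hepatectomy and to toxic damage, and Myc is a well-known liver oncogene. Their transcripts are short-lived, so their levels in a tissue sample also depend on what happened shortly before it was frozen.

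Levels are given as log2 of the background-corrected spot signal minus the 75th percentile of the non-control probes of the same array, so that 0 is the level of that percentile and a step of 1 is a factor of 2. Levels of different genes come from different probes and were not set against each other. A gene was called changed when its fold change exceeded 2 and the adjusted p of limma was under 0.05. In the annotation of the array, which uses the mm9 build, the Myc probe lies at chr15:61821417-61821476 on the plus strand and the Fos probe, spotted 10 times, at chr12:86817900-86817959 on the plus strand. The probes of Ier2 and Junb lie 316 kb apart on chromosome 8. All 10 probes were well above background in all 15 tumors, except that of Fosb in 1 of 5 p53LKO HCC and that of Ier2 in 2 of 5 ICC.

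The deleted gene went with the labels: its 1 probe read -1.27 to -0.68 in p53f/f HCC, -3.86 to -2.75 in p53LKO HCC and -4.19 to -2.31 in ICC, and whether it lies in the deleted part is not given in the sources used here. All 10 hepatocyte markers were well above background in every tumor, with summed linear levels (1 is the 75th percentile) of 3700 to 6620 in p53f/f HCC, 2950 to 3880 in p53LKO HCC and 915 to 2500 in ICC, and the 10 cholangiocyte markers summed to 6.52 to 30.9, 16.9 to 29.5 and 70.8 to 148. Between 55.1% and 70.1% of probes were well above background in p53f/f HCC, 37.0% to 62.1% in p53LKO HCC and 42.5% to 47.0% in ICC. The arrays sat on 2 slides with an upper and a lower row: all p53f/f HCC were in the upper row, all ICC in the lower row, and the p53LKO HCC were 3 in the upper and 2 in the lower row. Among the p53LKO HCC, the share of probes well above background was 61.0% to 62.1% in the upper row and 46.4% and 37.0% in the lower row. Mouse 3717 gave 2 of the p53f/f HCC, and 4 mice gave both an HCC and an ICC, so the p-values measure the spread between tumors rather than between animals. Since these are bulk samples, fewer cells of a type and less RNA per cell cannot be told apart.

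The sequences before the start sites are shown for the 3 genes that were higher in ICC than in HCC at an adjusted p under 0.05: Fos, Fosb and Klf6. They are the 250 bases before the gene's start in RefSeq (GRCm38.p6), read 5′ to 3′ along the gene: chr12:85473640-85473889, plus strand, for Fos, chr7:19310046-19310295, minus strand, for Fosb, and chr13:5861239-5861488, plus strand, for Klf6. Capitals mark, on either strand, the letters TGACGT, which are a half-site of the cAMP response element (CRE). They also mark the TATA box, searched for as TATAAA in all promoters. The E-box, to which Myc binds with Max, was searched for as CACGTG and is in capitals too. The last letters in capitals are those of the GC box, GGGCGG in full.
Fos: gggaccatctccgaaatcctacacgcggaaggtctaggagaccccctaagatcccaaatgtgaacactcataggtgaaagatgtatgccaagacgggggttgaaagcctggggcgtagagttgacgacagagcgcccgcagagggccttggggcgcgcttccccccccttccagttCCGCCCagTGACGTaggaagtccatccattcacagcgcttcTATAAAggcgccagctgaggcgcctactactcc
Fosb: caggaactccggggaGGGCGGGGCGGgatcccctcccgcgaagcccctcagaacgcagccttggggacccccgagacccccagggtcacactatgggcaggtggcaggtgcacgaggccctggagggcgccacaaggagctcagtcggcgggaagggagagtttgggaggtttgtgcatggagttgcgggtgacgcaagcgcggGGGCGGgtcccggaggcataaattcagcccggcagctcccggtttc
Klf6: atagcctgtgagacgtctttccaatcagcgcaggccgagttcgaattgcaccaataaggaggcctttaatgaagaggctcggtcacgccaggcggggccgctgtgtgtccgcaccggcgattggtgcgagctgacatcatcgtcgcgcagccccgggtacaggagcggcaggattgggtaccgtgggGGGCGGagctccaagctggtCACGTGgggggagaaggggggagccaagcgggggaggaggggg
Of the 10 genes, 7 have an entry in this table, and Myc, Egr1 and Ier2 do not. The Fos sequence holds a CRE half-site that begins 66 bases before the start and a TATA box that begins 33 bases before it. In Klf6 an E-box begins 43 bases before the start, while Fosb holds only GC boxes. Both strands of these 250 bases were searched in all 32851 promoters of the table. A CRE half-site stood in 3 of the 7 (Fos, Atf3 and Dusp1) against 6.47% of all promoters, and the full CRE, TGACGTCA, which contains the half-site, in 1 of the 7 (Dusp1) against 1.55%. An E-box was found in 2 of the 7 (Klf6 and Dusp1) against 6.02%, a TATA box in 1 (Fos) against 12.4% and a GC box in 6 against 32.7%. The AP-1 site, TGANTCA, stood in 0 of the 7 and in 6.75% of all promoters, and the CArG box, where SRF binds, in 0 of the 7 and in 1.47%, which says only that these letters are not in this window.

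The effect of p53 loss within HCC was asked first. Of the 10 genes, Myc alone was called, and it was higher in p53LKO than in p53f/f HCC. Over all 36086 probes tested, 3.64% were called higher and 16.0% lower, against 1 and 0 of the 10 genes. Of the 18865 probes well above background in all 15 tumors, called bright probes here, 4.93% were called higher and 4.27% lower. The excess of lower calls thus lay in probes not well above background in every tumor. Any probe that fell to background in p53LKO HCC is left out of the bright ones by this rule, whatever its level in p53f/f HCC. The split also depended on the background correction, with 930 higher and 1962 lower under normexp, and on the scaling: 1312 probes were called higher and 5774 lower, but 9811 higher and 2313 lower when the arrays were scaled to the spike-in probes, and 7519 and 2813 when scaled to the median probe. Jun, Atf3, Klf6 and Ier2 were then called higher beside Myc with both, and Dusp1 with the spike-in probes. With the adjusted p alone and the 75th percentile, 1 gene was higher (Myc) and 1 lower (Fosb), where 10.1% and 22.8% of all probes were. The groups overlapped for all 10 genes, while 22.5% of probes had no overlap. The median log2 fold change was 0.38 over the 10 genes, beside -0.12 over all probes tested and 0.17 over the bright ones.

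Myc levels in p53f/f HCC were -1.25, 0.60, -0.37, -0.66 and -0.56, and in p53LKO HCC 0.42, 0.84, 0.38, 1.47 and 0.93. All p53LKO HCC thus lay above 4 of the 5 p53f/f HCC, and the remaining one, tumor T2 of mouse 3715, was higher than 2 of the p53LKO HCC. Mean levels were -0.45 ± 0.67 (SD, n = 5) and 0.81 ± 0.44 (SD, n = 5), a 2.39-fold difference (log2 fold change 1.26, SE 0.33, 95% interval 0.53 to 1.99, limma adjusted p = 0.0146, exact two-sided permutation p = 0.0238). Without mouse 3715 the log2 fold change was 1.52 (limma adjusted p = 0.00277). With the tumors of mouse 3717 averaged it was 1.22 (limma adjusted p = 0.0355). Within the upper row of the slides it was 1.38 (limma adjusted p = 0.0341), within slide 1 it was 1.05 (adjusted p = 0.229) and within slide 2, with a single p53f/f HCC, 1.49 (adjusted p = 0.149). Myc was also called under quantile normalization (1.23) and with each of 3 other scalings, but its size depended on them: the log2 fold change was 1.01 when scaled to the 75th percentile of bright probes, 1.86 with the median probe and 1.99 with the spike-in probes.

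**Figure D1:**
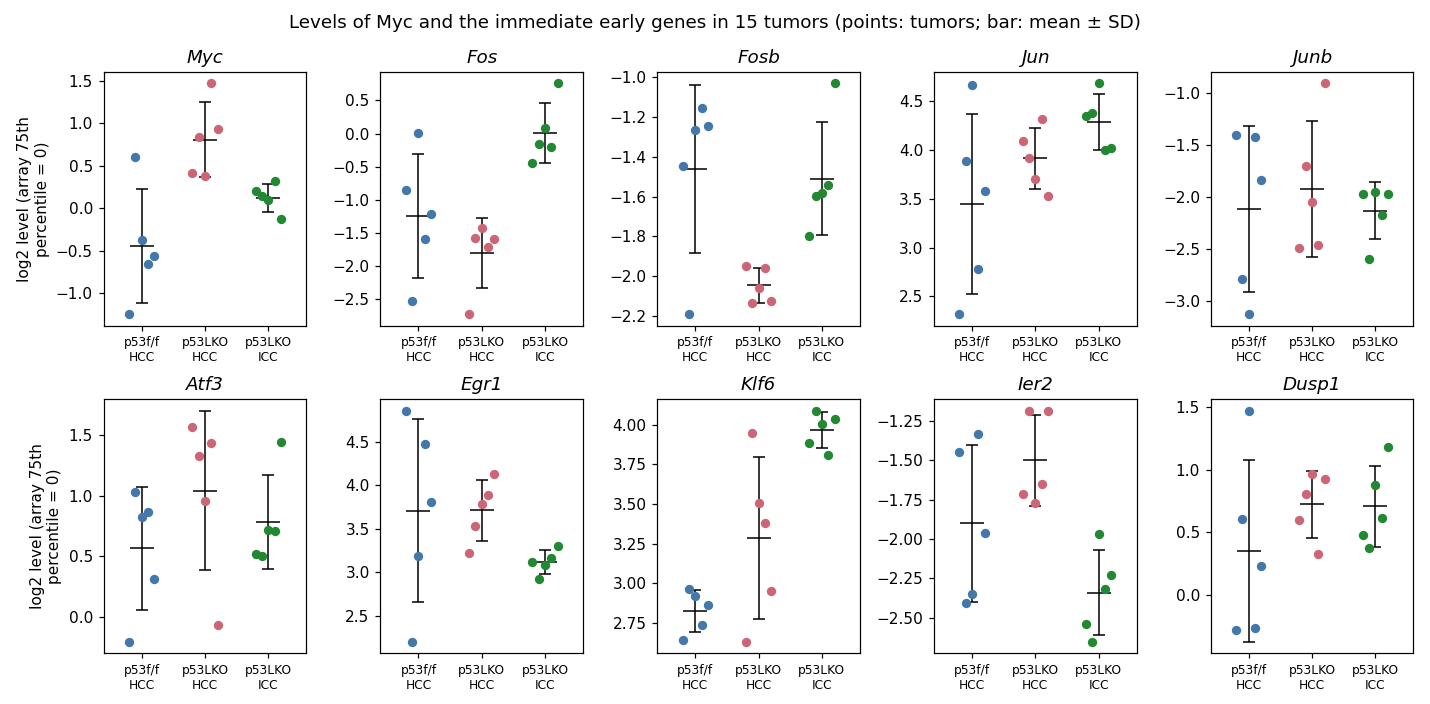
Log2 levels (vertical axes, 0 is the 75th percentile of the array, each panel with its own range) of the 10 genes in p53f/f HCC, p53LKO HCC and p53LKO ICC. Points are tumors and bars give mean ± SD of 5. Myc lay at 0.38 to 1.47 in p53LKO HCC and at -0.13 to 0.32 in ICC, and Fos at -2.72 to -1.42 in p53LKO HCC and -0.44 to 0.76 in ICC.

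Of Fos, Fosb, Jun, Junb and Atf3, none was called in this comparison with the 75th percentile, and Jun and Atf3 were with the median probe or the spike-in probes. Fos levels were -0.85, -2.53, 0.01, -1.59 and -1.21 in p53f/f HCC and -2.72, -1.57, -1.42, -1.71 and -1.58 in p53LKO HCC. The p53f/f tumors covered all of the p53LKO range but its lowest value, and the difference was -0.56 (SE 0.43, 95% interval -1.50 to 0.38, limma adjusted p = 0.332). Fosb, a relative of Fos that also pairs with Jun proteins, was at -1.45, -2.19, -1.27, -1.16 and -1.25 in p53f/f HCC and at -1.95, -2.14, -2.06, -1.96 and -2.13 in p53LKO HCC. All p53LKO HCC lay below 4 of the 5 p53f/f HCC, and the tumor of mouse 3715 lay below all of them. This difference of -0.59 (SE 0.21) passed the adjusted p (0.0489, limma) but stayed under a fold of 2, with an exact permutation p of 0.0476. It was lost in most alternatives: with the tumors of mouse 3717 averaged the difference was -0.52 (limma adjusted p = 0.109), the adjusted p was 0.0731 with the slide and 0.11 with the row as a block, and of 10 fits that left out 1 tumor only the one without mouse 3715 was under 0.05 (0.00361, the others 0.0691 to 0.115). Since all p53f/f HCC sat in the upper row, the row fit sets them against only the 3 p53LKO HCC of that row. Scaled to the median probe or to the spike-in probes, the log2 fold change of Fosb turned to 0.02 and 0.15 and that of Fos to 0.04 and 0.17.

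Jun, the partner of Fos in AP-1, ranged from 2.32 to 4.66 in p53f/f HCC and from 3.53 to 4.32 in p53LKO HCC (log2 fold change 0.47, SE 0.39, limma adjusted p = 0.381). For Junb, another Jun protein, the ranges were -3.13 to -1.41 and -2.49 to -0.91 (0.19, SE 0.41, adjusted p = 0.745, limma). Atf3, a stress-induced factor of the ATF family, ranged from -0.21 to 1.03 and from -0.07 to 1.57 (0.48, SE 0.34, adjusted p = 0.305, limma). Of the p53LKO HCC, 0, 1 and 3 of 5 lay above all p53f/f HCC for these 3 genes, and the 95% intervals, of -0.39 to 1.33, -0.71 to 1.10 and -0.27 to 1.23, reach past a fold of 2 upward.

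Egr1, a zinc-finger factor induced by growth factors, had the widest spread in p53f/f HCC: 4.85, 2.21, 3.19, 4.47 and 3.81 in p53f/f HCC against 3.22, 3.53, 3.79, 3.89 and 4.13 in p53LKO HCC. The p53f/f tumors lay on both sides of all p53LKO tumors, the means were 3.71 in both groups, and the 95% interval of the difference was -0.96 to 0.98 (limma adjusted p = 0.994). Klf6, a zinc-finger factor of the Krüppel-like family, was at 2.64 to 2.97 in p53f/f HCC and 2.63 to 3.95 in p53LKO HCC, with 3 of 5 p53LKO tumors above all controls (0.46, SE 0.24, limma adjusted p = 0.157). Ier2, an immediate early gene of the nucleus, ranged from -2.41 to -1.34 and from -1.77 to -1.19 (0.40, SE 0.25, limma adjusted p = 0.244). With normexp background correction the Ier2 difference was 0.013 (limma adjusted p = 0.955). Dusp1, the phosphatase that switches off MAP kinases, ranged from -0.28 to 1.47 and from 0.33 to 0.97 (0.37, SE 0.32, limma adjusted p = 0.396).

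For 8 of the 10 genes the spread between tumors was largest in the controls, the exceptions being Klf6 (SD 0.13 in p53f/f and 0.51 in p53LKO HCC) and Atf3 (0.51 and 0.66). The SD over the 5 tumors had a median over the 10 genes of 0.70 in p53f/f HCC, 0.40 in p53LKO HCC and 0.28 in ICC, beside medians of 0.32, 0.30 and 0.29 over the 18865 probes well above background in all tumors. An SD over 0.5 was seen for 7 genes in p53f/f HCC, 4 in p53LKO HCC and 0 in ICC. Tumor T1 of mouse 3681 had the highest Egr1 (4.85) and the lowest Myc (-1.25), Jun (2.32) and Atf3 (-0.21) of the p53f/f HCC. Tumor T2 of mouse 3715 had the lowest Fos (-2.53), Fosb (-2.19), Egr1 (2.21) and Ier2 (-2.41) and the highest Myc (0.60) and Atf3 (1.03), and it also had the smallest share of probes well above background in its group, 55.1%. In both tumors some of the genes were thus at the top of their group and others at the bottom. The part of RNA quality or handling in this spread was not tested.

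**Figure D2:**
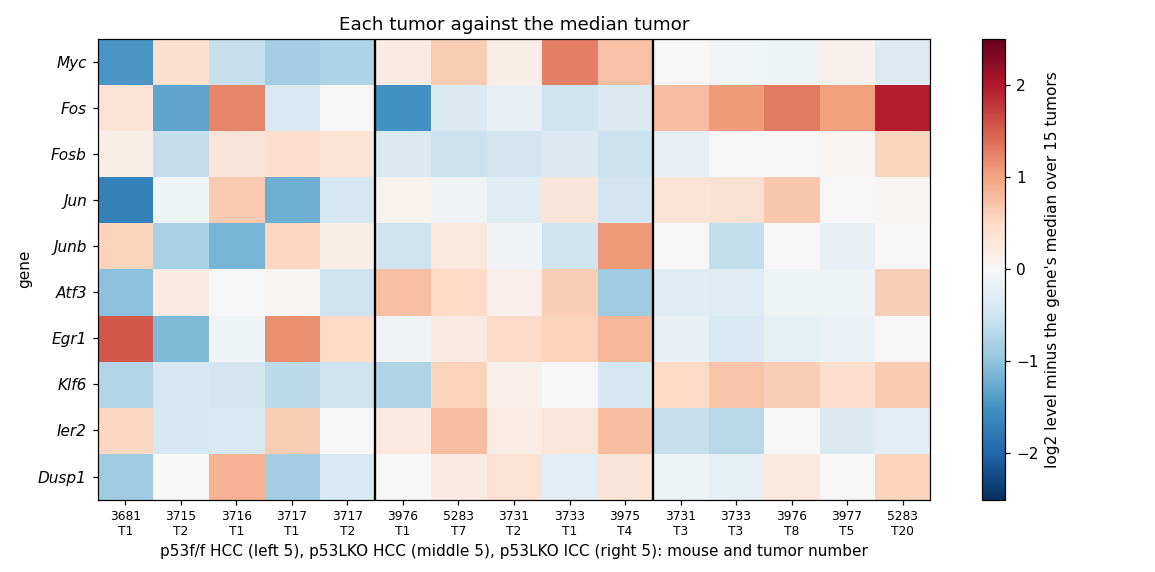
Log2 level of each gene (rows) in each of the 15 tumors (columns, by mouse and tumor number) minus the gene's median over all tumors (colour scale, red above and blue below). Some columns of the p53f/f HCC mix strong red and blue, as for mouse 3681 with Egr1 at 4.85 and Jun at 2.32. No gene has an SD over 0.46 among the 5 ICC.

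The second question was how ICC differs from HCC in p53LKO mice. Here Fos was called, higher in ICC, and no other gene was. Of the 32666 probes tested, 12.9% were called higher and 13.4% lower, against 1 and 0 of the 10 genes. By the adjusted p alone, Fos, Fosb and Klf6 were higher and Myc, Egr1 and Ier2 lower in ICC, so 3 and 3 of the 10 genes, where 18.0% and 27.2% of all probes were. For Myc, Fos, Fosb and Ier2 the groups did not overlap, 4 of the 10 genes, beside 28.6% of all probes. The median log2 fold change was -0.11 over the 10 genes, -0.16 over all probes tested and -0.27 over the bright ones, of which 7.56% were called higher and 15% lower.

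Fos in ICC was at -0.44, -0.16, 0.08, -0.20 and 0.76, each above the highest of the p53LKO HCC, -1.42. Mean levels were -1.80 ± 0.53 (SD, n = 5) in HCC and 0.01 ± 0.46 (SD, n = 5) in ICC, a 3.51-fold difference (log2 fold change 1.81, SE 0.29, 95% interval 1.17 to 2.45, limma adjusted p = 0.000849). The exact permutation p was 0.00794, the smallest that 5 against 5 tumors can give. Leaving out any 1 tumor gave 1.58 to 1.92. Within the lower row, with 2 HCC and 5 ICC, the log2 fold change was 2.16 (limma adjusted p = 0.013). Within slide 2 it was 1.69 (adjusted p = 0.00472, limma) and within slide 1, with 2 HCC and 1 ICC, 1.71 (adjusted p = 0.200, limma).

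Fosb went the same way by less: ICC levels of -1.80, -1.60, -1.58, -1.54 and -1.03 all lay above the highest HCC, -1.95. The difference was 0.54 (SE 0.17, 95% interval 0.17 to 0.90, limma adjusted p = 0.0231, exact permutation p = 0.00794), and 1 HCC had no signal well above background. Klf6 in ICC was at 3.88, 4.09, 4.003, 3.81 and 4.03, a narrow band that held 1 of the HCC, mouse 5283 at 3.95, and lay above the other 4. Its difference was 0.68 (SE 0.23, 95% interval 0.17 to 1.19, limma adjusted p = 0.0347). It was called, like Fos, under quantile normalization and when scaled to probes well above background in all tumors, but its adjusted p was under 0.05 in only 3 of 10 fits that left out 1 tumor (up to 0.0818, limma) and in 9 of 23 alternatives in all, single slides and rows aside. The same count of alternatives was 23 of 23 for Fos and 14 of 22 for Fosb.

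Myc was lower in ICC, at 0.21, 0.14, 0.09, 0.32 and -0.13, each below the lowest p53LKO HCC, 0.38. The mean of 0.13 ± 0.17 (SD, n = 5) gave a log2 fold change of -0.68 (SE 0.22, 95% interval -1.16 to -0.20, limma adjusted p = 0.0257, exact permutation p = 0.00794). All 5 ICC nevertheless lay above 4 of the 5 p53f/f HCC, a comparison of tumor type and genotype at once that was not tested. Ier2 was at -2.54, -2.65, -1.97, -2.32 and -2.23 in ICC, all below the lowest HCC, -1.77. It fell by 0.84 on the log2 scale (SE 0.19, limma adjusted p = 0.00581, exact permutation p = 0.00794), with 2 ICC not well above background. Egr1 was at 3.12, 2.92, 3.08, 3.16 and 3.30 in ICC, 4 of them below all HCC, and fell by 0.59 (SE 0.19, limma adjusted p = 0.0247, exact permutation p = 0.0159). The adjusted p was under 0.05 in 16 of 23 alternatives for Myc, 20 of 22 for Ier2 and 13 of 23 for Egr1. Over all alternatives, single slides and rows included, the log2 fold change kept its sign but ranged from -1.03 to -0.31 for Myc, from -1.19 to -0.39 for Ier2 and from -0.94 to -0.23 for Egr1, and the smallest values for Myc and Egr1 came from scaling to bright probes.

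The 4 remaining genes did not pass in the main fit. Jun, at 4.002 to 4.69 in ICC, differed by 0.37 (95% interval -0.07 to 0.82, limma adjusted p = 0.153), and 3 of 5 ICC were above all HCC. Over all alternatives the Jun difference ranged from 0.02 to 0.83. Single slides and rows aside, its adjusted p was under 0.05 in 2 of 23. Junb was at -2.59 to -1.95 in ICC, within the HCC range but for its lowest value (-0.21, 95% interval -0.86 to 0.44, limma adjusted p = 0.587). Atf3 at 0.50 to 1.45 lay inside the HCC range (-0.26, 95% interval -0.96 to 0.43, limma adjusted p = 0.521). With 1 tumor left out, the Atf3 difference was -0.54 to -0.13. Dusp1 was at 0.38 to 1.18, and the difference was -0.02 (95% interval -0.46 to 0.43, limma adjusted p = 0.951).

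**Figure D3:**
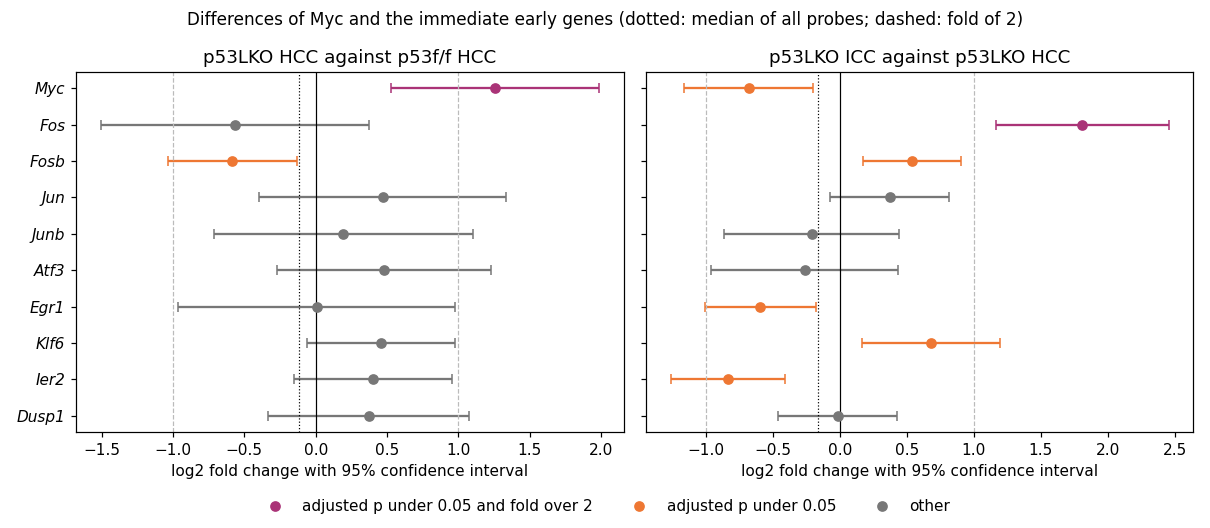
Log2 fold change (horizontal axes) of the 10 genes with its 95% confidence interval from limma, for p53LKO against p53f/f HCC (left) and for ICC against HCC of p53LKO mice (right). Only Myc on the left (1.26) and Fos on the right (1.81) passed both thresholds, and the dotted lines give the medians of all probes, -0.12 and -0.16.

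When the HCC and ICC of the same 4 mice were compared with the mouse as a block, Fos kept a log2 fold change of 1.92 (limma adjusted p = 0.0156). Under the same fit Myc was at -0.70 (adjusted p = 0.0994, limma), Ier2 at -0.77 (0.0533), Egr1 at -0.50 (0.151), Fosb at 0.52 (0.138) and Klf6 at 0.63 (0.126), so these 5 kept their direction and lost the adjusted p with 8 tumors. With the row of the slide as a block, Fos (2.16, limma adjusted p = 0.00413) and Ier2 (-0.89, adjusted p = 0.0347) passed, while Myc (-0.50, adjusted p = 0.213), Egr1 (-0.26, 0.358), Fosb (0.53, 0.107) and Klf6 (0.67, 0.142) did not. The differences of Fosb and Klf6 were thus about as large as without the block, and that of Egr1 was smaller. Since all ICC sat in the lower row, the row fit sets them against only the 2 p53LKO HCC of that row. Both comparisons share the p53LKO HCC, so low Fos and Fosb or high Myc there enters both.

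Counts of called markers of other cells read against 12.9% of all probes called higher and 13.4% lower in ICC against HCC, and 3.64% and 16.0% in p53LKO against p53f/f HCC. Of 8 stellate cell and fibroblast markers 5 were called higher in ICC than in p53LKO HCC, with summed linear levels of 458 to 807 in ICC, 71.6 to 236 in p53LKO HCC and 31.1 to 113 in p53f/f HCC. The cholangiocyte markers Krt19, Epcam, Spp1 and Krt7 were called higher and Cldn7 lower in ICC, and Epcam was not well above background in any p53LKO HCC. Of 10 hepatocyte markers 5 were called lower, and of 8 macrophage markers 1, Lyz2, was called higher (2.99). Of 8 T and B cell markers 4 were called higher and 1, Cd4, lower. Their summed level, 12 to 19.8 in ICC, lay below that of p53LKO HCC, 31.5 to 101, where Cd4 made up most of it. Cd4 had a mean log2 level of 5.59 in p53LKO HCC and 2.84 in ICC, so this sum mostly repeats its lower call. For p53LKO against p53f/f HCC, 0 of 10 hepatocyte and 0 of 8 fibroblast markers were called, though 3 hepatocyte markers were lower by the adjusted p alone, 2 of 8 endothelial markers were lower (Stab2, -1.17, and Tek, -1.06), 2 of 10 proliferation markers (Mcm2 and Mcm5) were higher, and 3 of 7 neutrophil markers were higher (S100a8, S100a9 and Retnlg) and 1 lower (Csf3r). The summed level of the neutrophil markers was 283 to 379 in p53f/f HCC and 126 to 172 in p53LKO HCC. Csf3r, the 1 called lower, made up most of it, with mean log2 levels of 8.26 and 6.71, so the sum mostly repeats that call. The next highest, S100a9, was at 2.64 and 4.74. The part of these cells in the differences of Myc, Fos and the other early genes was not tested.

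The genes around them were counted from lists of the AP-1 family, of other early genes, of their inputs and of Myc. Each count reads against the shares of all probes called, 3.64% higher and 16.0% lower in p53LKO against p53f/f HCC (bright probes 4.93% and 4.27%) and 12.9% higher and 13.4% lower in ICC against HCC (bright probes 7.56% and 15%). Of 15 other AP-1 family genes, 3 were called higher and 0 lower in p53LKO than in p53f/f HCC: Jund, a Jun protein (1.47), Maff, a small Maf protein (1.31), and Fosl2, a Fos relative (1.12). The list's median was 0.41, beside -0.12 for all and 0.17 for bright probes. In ICC against HCC 4 were called higher, among them Atf7 (2.51), Jdp2, a Jun dimerization protein (1.35), and Fosl2 (1.22), and 0 were called lower, with a median of -0.13 beside -0.16 and -0.27.

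Of 40 other immediate early and early response genes 37 were tested in each comparison. In p53LKO against p53f/f HCC 5 were higher, among them Ier3 (2.46), Dusp8 (1.64), Ier5l (1.44) and Gadd45b (1.38), and 4 lower: Zfp36, which speeds up mRNA decay (-1.57), Btg2, a known p53 target (-1.53), Errfi1, a brake on the EGF receptor (-1.18), and Nr4a2 (-1.09). Their median was -0.05. In ICC 13 were higher and 1 lower of 37, where 12.9% and 13.4% of all probes were, with a median of 0.60 beside -0.16 for all and -0.27 for bright probes. The largest were Arc, which is best known from neurons (4.22, limma adjusted p = 4.88e-05), Ccn2, a matricellular protein of fibrosis (2.53), Nr4a2, an orphan nuclear receptor (2.08), and Egr2 (1.84), and the lower one was Errfi1 (-1.05). Egr2 was thus higher in ICC where its relative Egr1 was lower.

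Of 19 genes that act on immediate early promoters or in the MAP kinase cascade, 2 were called higher and 0 lower in p53LKO HCC, Mrtfa (1.19) and Mrtfb (1.04), both cofactors of the serum response factor SRF. In ICC Elk3, a ternary complex factor, was higher (1.68) and Rps6ka1, a kinase below ERK, lower (-1.13), so 1 of 19 each way, below the share of all probes. The medians were 0.08 and -0.22.

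Among 15 genes of the Myc network, 12 were tested in each comparison. In p53LKO against p53f/f HCC 0 were called, with a median of 0.16, and Max, the partner of Myc, passed the adjusted p alone (0.82, limma adjusted p = 0.00607). In ICC, where Myc was lower, its relative Mycn was called higher (1.91, limma adjusted p = 0.00288) and so was Mlxip (1.01), while Mlxipl, the carbohydrate-sensing factor of hepatocytes also known as ChREBP (-2.35), and its partner Mlx (-1.04) were lower. These 2 and 2 of 12 are near the 12.9% and 13.4% of all probes, and the median was 0.14. Mycn was well above background in only 3 of 5 p53LKO HCC. Its mean level was -3.52 there, -1.61 in ICC and -1.95 (SD 2.30) in p53f/f HCC.

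Of 32 Myc target genes 4 were called higher and 1 lower in p53LKO HCC, and 25 of 32 had a positive difference, as had 43.7% of all and 63.4% of bright probes, with a median of 0.36 beside -0.12 for all probes and 0.17 for bright ones. Higher were Ccnd2, a cyclin (2.44), Cdc25a, a cell cycle phosphatase (1.46), Srm, spermidine synthase (1.19), and Ncl, nucleolin (1.16), and lower was Tert, the telomerase subunit (-1.31). By the adjusted p alone 13 were higher and 3 lower, where 10.1% and 22.8% of all and 16.4% and 8.66% of bright probes were. In ICC 0 were called higher and 5 lower, with a median of -0.31 beside -0.16 for all and -0.27 for bright probes, and 5 of 32 is near the 13.4% of all probes called lower: Hspd1, a mitochondrial chaperone (-1.77), Ccnd2 (-1.76), Cdc25a (-1.23), Shmt2, a mitochondrial serine enzyme (-1.06), and Wdr12, a ribosome biogenesis factor (-1.03). Of 10 heat shock genes 9 were on the array, and 3 were called higher in p53LKO HCC, Hsph1 (1.57), Dnajb1 (1.35) and Hsp90aa1 (1.05), with 0 lower and a median of 0.86. In ICC 1 was lower, Hspe1 (-1.18), and the median was -0.40.

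**Figure D4:**
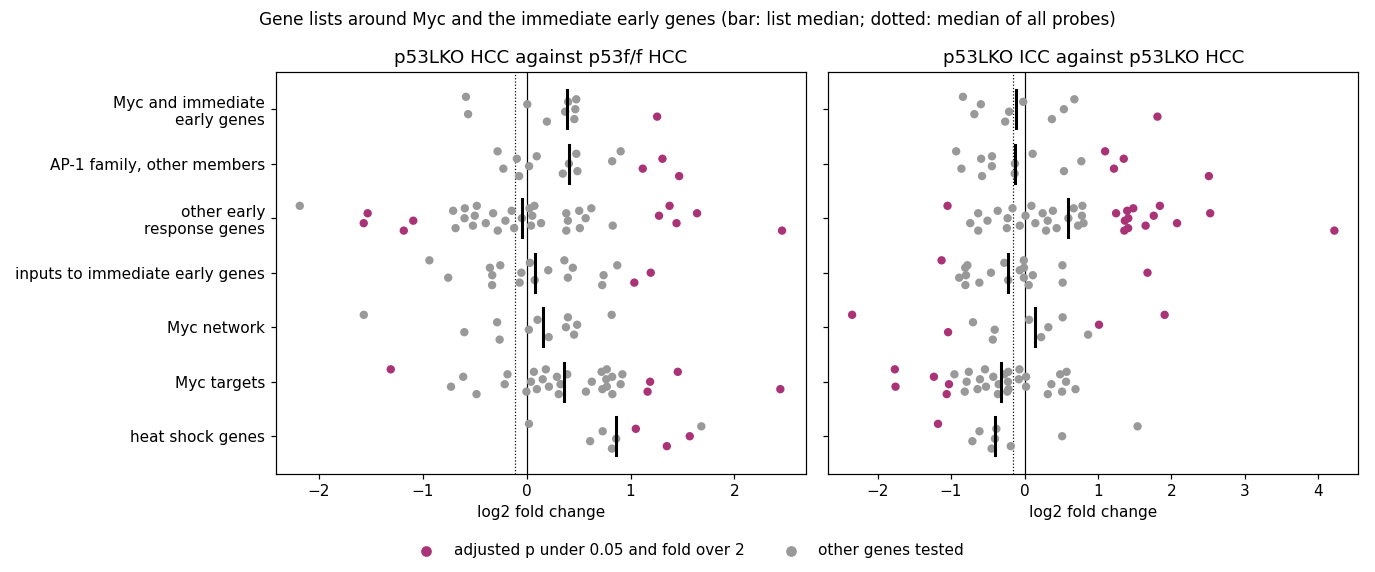
Log2 fold change (horizontal axes) of every gene tested in the 7 groups of genes, for p53LKO against p53f/f HCC (left) and ICC against HCC (right). Points are genes, purple where called, short bars are the medians of the groups and the dotted lines the medians of all probes. Other early response genes have a median of 0.60 on the right and -0.05 on the left.

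The genes whose levels were most like those of Myc over the 15 tumors, among 11574 genes well above background in all of them, were Cherp (Pearson r = 0.92), Mbtps1 (0.91), Rars2 (0.90), Dph2 (0.90) and Rbm27 (0.90). Most like Fos were Snrnp70 (0.88), Abracl (0.88), Zc3h12d (0.87), Pcnt (0.86) and 4930593A02Rik (0.86). These are descriptions over 15 arrays that share groups, slides and scaling, and Fosb and Ier2, which were not well above background in all tumors, could not appear among them.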

How the data were processed

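Per the labels, the authors used Feature Extraction 10.7.3.1, and each deposited scanner file gives the intensity of a spot after background subtraction and detrending. A second deposited file gives the log2 values of the authors, centred per probe and differently for HCC and ICC columns, and served as an alternative for HCC only. In R 4.3.3 with limma 3.58.1, log2 processed signals were averaged over the spots of a probe, without 2 outlier-flagged spots of these genes, and shifted by the array's 75th percentile. A probe was tested if 3 or more arrays of either group had it well above background. Each comparison was fitted on its own 10 arrays (lmFit, eBayes, Benjamini-Hochberg over all probes tested). Permutation tests ran over all 252 choices of 5 from 10 arrays. A listed gene is represented by its brightest probe, and up to 4 called genes per direction are named, apart from 1 that is not reported here. Older array symbols were matched through RefSeq synonyms, and Hspa1b and Ly6g were not matched. The test was checked on simulated data. The genes and lists were chosen with earlier results of these data known. HCC and ICC were paired through the mouse named in the labels. Figures were drawn in matplotlib 3.10.9.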

Additional observations from a re-analysis of the deposited data

Results flagged for a closer look

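Among the 30 sets of 5 tumors (10 genes in 3 groups), 3 held a tumor set apart by Dixon's criterion, where chance gives about 1.5. Fos in tumor T1 of mouse 3976 was at -2.72 among the p53LKO HCC, whose other values were -1.71 to -1.42. Without this tumor Fos was 1.58 higher in ICC on the log2 scale (limma adjusted p = 0.00118). Fosb in tumor T2 of mouse 3715 was at -2.19 among the p53f/f HCC, the others being at -1.45 to -1.16, and without it Fosb differed by -0.77 between p53LKO and p53f/f HCC (limma adjusted p = 0.00361). Atf3 in tumor T20 of mouse 5283 was at 1.45 among the ICC, the others being at 0.50 to 0.72, and no call for Atf3 depended on it.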

How the results depend on the processing

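Leaving out 1 tumor at a time left the number of called genes at 1 in each comparison (lowest 1, highest 1), with Myc at 1.06 to 1.52 in p53LKO against p53f/f HCC and Fos at 1.58 to 1.92 in ICC against HCC. The number called in p53LKO against p53f/f HCC was 5 with scaling to the median probe (Myc, Jun, Atf3, Klf6 and Ier2), 6 with scaling to the spike-in probes (the same and Dusp1), 2 with no limit on the fold change, and 0 within slide 1 or slide 2 alone, where Myc was at 1.05 and 1.49. In ICC against HCC it was 3 with quantile normalization (Fos, Klf6 and Ier2), 2 when scaled to probes well above background in all tumors (Fos and Klf6), 3 with the median probe (Myc, Fos and Ier2), 6 with no fold limit, and 0 within slide 1, where Fos was at 1.71. With the mouse as a replicate block in 4 pairs Fos was at 1.92, and the deviations of paired tumors correlated at -0.142 to 0.0658, against -0.263 to 0.283 for other pairs.

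The scaling moved all probes: in p53LKO against p53f/f HCC the median log2 fold change shifted by 0.16 (quantile), -0.25 (probes above background in all), 0.60 (median probe) and 0.74 (spike-in), and probes called higher and lower went from 1312 and 5774 to 630 and 7942, 7519 and 2813, and 9811 and 2313 under the last 3. In ICC against HCC the shifts over 0.1 were 0.37 (probes above background in all) and -0.35 (median probe). The sign turned for genes that were not called. In p53LKO against p53f/f HCC these were Egr1 (-0.22 quantile, -0.24 probes above background in all, -0.15 slide as a block, -0.30 slide 1, and -0.37 to 0.29 with 1 tumor left out), Junb (-0.052 probes above background in all, and -0.059 to 0.37 with 1 left out), Fos (0.040 median probe, 0.17 spike-in) and Fosb (0.019 and 0.15). In ICC against HCC they were Dusp1 (0.062 quantile, 0.35 probes above background in all, 0.0047 row as a block and lower row alone, 0.024 slide 2, 0.055 mouse as a block, and -0.14 to 0.065 with 1 left out), Junb (0.16 probes above background in all, 0.12 slide 1, 0.054 mouse as a block, and -0.35 to 0.044 with 1 left out) and Atf3 (0.11 probes above background in all, 0.072 slide 2). Leaving aside single slides and rows, Fosb in p53LKO against p53f/f HCC kept an adjusted p under 0.05 in 4 of 22 alternatives. With 1 tumor left out, other uncalled differences in p53LKO against p53f/f HCC ranged from -0.89 to -0.25 (Fos), 0.19 to 0.77 (Jun), 0.28 to 0.75 (Atf3) and 0.21 to 0.65 (Dusp1). Those of Klf6 and Ier2 ranged from 0.29 to 0.62 and from 0.27 to 0.54. The cause of these changes was not tested beyond the shift of all probes.

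The authors' table was not used for ICC, all probes of a gene could not differ with 1 probe each, and a random mouse effect could not be fitted for p53LKO against p53f/f HCC. With 5 tumors a group, signals of Fosb and Ier2 near background limit their differences.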
